A study of Caenorhabditis elegans with 4 samples.

Results

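Chromatin immunoprecipitation followed by sequencing (ChIP-seq) located DPY-26 in wild-type Caenorhabditis elegans, and the regions described here are the X chromosome peaks that stand in the series-level peak list alone. They were chosen by the deposited peak positions, as the series-level X peaks that share not a single base with any peak of ChIP replicate 1 or ChIP replicate 2. They are called series-only X peaks below. There were 2749 of them among 9008 series-level X peaks and 9882 series-level peaks in all. All libraries came from mixed embryos of strain N2, kept at 20 °C and labelled as a population of both sexes, males and hermaphrodites. Embryos of many stages were pooled in each extract, so no peak can be tied to one stage or cell type. The embryos were fixed in 2% formaldehyde for 30 minutes, and DPY-26 was precipitated with an affinity-purified rabbit polyclonal antibody, SDQ4561. The series holds 2 ChIP and 2 input libraries, and the values come from 1 list per ChIP library and 1 list for the series. Peak positions are those of WormBase WS220, the release the file headers name. Neither its genome nor its gene models were used, so peaks are given by position, without sequence or gene.

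DPY-26 is the kleisin subunit that C. elegans uses both in condensin I, which compacts mitotic and meiotic chromosomes, and in the condensin of the dosage compensation complex. That complex binds both X chromosomes of hermaphrodites and lowers their transcription. As background from earlier work on the complex, it is loaded at a limited set of strong recruitment sites and spreads from them to many weaker sites along the X, among them the promoters of active genes. Its levels at single sites therefore span a wide range.

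The lists differ in how they were made, which bears on every value below. The replicate lists name MACS as the caller and start at a score of 50.1 in replicate 1 and 50.0 in replicate 2. The series-level list names MACS v2 and starts at a score of 1.30. Scores are the authors' own values on a scale that the sources used here do not give. They are compared only within 1 list, and replicate scores named beside series-level scores are not compared with them. Replicate 1 listed 1235 X peaks that covered 3.93% of the X, and replicate 2 listed 2542 X peaks that covered 43.1% of it. The lists hold no read counts, so the depth behind a peak is unknown. The overlap rule chose the peaks, so scores, widths and positions are given as descriptions with no test, and 2 ChIP libraries would allow none across samples.

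Series-only peaks made up 30.5% of the series-level X peaks, with a Wilson 95% interval of 29.6% to 31.5%. The same rule applied to all nuclear chromosomes took 33.3% of 9876 peaks, and on the autosomes it took 62.1% of 868 peaks, or 539. Replicate peaks covered 43.5% of the X and 0.603% of the autosomes. Replicate 2 decided nearly all of the choice. Of the 6259 X peaks that a replicate supported, 6171 overlapped a replicate 2 peak (98.6%, interval 98.3% to 98.9%) and 88 overlapped a replicate 1 peak alone. With replicate 1 as the only reference, 7826 X peaks would have counted as unsupported. With replicate 2 as the only reference the number would have been 2837. Replicate 2 peaks were wide, with an X median of 2317 bp against 488 bp in replicate 1, and with replicate 2 peaks resized to 488 bp the number of series-only peaks was 6058. Requiring a series-level score of at least 5 left 1399 of them.

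Series-only X peaks had low scores, but they spanned most of the range of the weaker X peaks. Their lowest score was 1.30, the lower quartile 3.71, the median 5.07 (95% interval of the median over peaks 4.86 to 5.14), the upper quartile 7.54 and the highest 47.97. X peaks that overlapped replicate 2 alone, the most similar group, ran from 1.30 to 75.02 with a median of 7.12 and quartiles of 4.42 and 12.36. The interquartile range of that group held 1516 of the 2749 series-only peaks (55.1%, Wilson interval 53.3% to 57.0%), and a further 1050 peaks lay below it. For X peaks shared by both replicates the median was 51.1, so series-only peaks had the lowest median of the 4 overlap classes on the X. Among series-only peaks 1970 (71.7%, interval 69.9% to 73.3%) scored below the X median of 7.10. Scores repeated often, with 717 distinct values among the 2749 peaks, and the most frequent one, 4.78, stood in 80 of them.

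The share of X peaks without a replicate peak was flat among weak peaks and then fell with score. It was 42.2% of the 154 X peaks scoring up to 2 (Wilson interval 34.7% to 50.1%), 48.0% of the 640 peaks between 2 and 3 (44.1% to 51.8%) and 45.7% of the 2145 peaks between 3 and 5 (43.6% to 47.8%). These 3 intervals overlap. The share was 36.5% between 5 and 10, 17.8% between 10 and 20 and 5.91% between 20 and 50. None of the 618 X peaks above 50 lacked a replicate peak, which by the Wilson interval allows a share of up to 0.618%. Most series-only peaks stood in the middle classes, 35.6% of them between 3 and 5 and 38.2% between 5 and 10. Autosomal peaks showed larger shares in each class that could be compared, for example 76.0% between 3 and 5 (interval 69.6% to 81.4%) and 22.9% between 20 and 50 (13.3% to 36.5%). The intervals of the lowest class overlapped, since it held 25 autosomal peaks. The lower shares of the X go with the 43.5% of the X that replicate peaks cover, and the part of that cover in the difference was not tested.

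**Figure D1:**
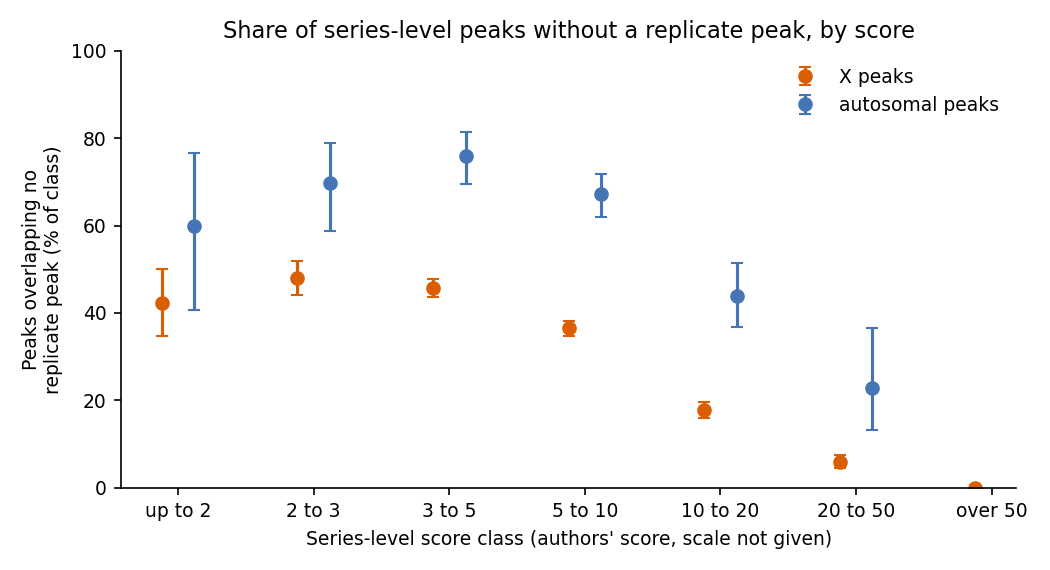
Share of series-level peaks that overlap no replicate peak, in percent of each score class, for X peaks (orange) and autosomal peaks (blue); points are shares and bars are Wilson 95% intervals. The X share stays between 42.2% and 48.0% in the 3 lowest classes and falls to 5.91% between 20 and 50, and no autosomal peak scored above 50.

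At a score of at least 20 there were 55 series-only peaks, or 2.00% of them (interval 1.54% to 2.60%). Over all X peaks 17.2% reached that score, and among the peaks that overlapped replicate 2 alone 9.89% did. In the ranking of all X peaks by score, 648 peaks stood above every series-only peak.

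Series-only X peaks were narrow, with a median width of 230 bp (95% interval of the median over peaks 225 bp to 235 bp) and quartiles of 177 bp and 316 bp. X peaks that overlapped replicate 2 alone had a median of 320 bp, those found in both replicates 668 bp, and unsupported autosomal peaks 201 bp. A wide peak has more bases that can meet a replicate peak, so part of this order follows from the rule itself. The narrowest width in the list, 146 bp, stood in 77 series-only peaks (2.80%) against 1.60% of all X peaks. Only 115 series-only peaks were wider than 500 bp (4.18%, interval 3.50% to 5.00%), whereas 23.1% of all X peaks were. By width class the unsupported share of X peaks fell from 50.2% up to 200 bp to 5.73% between 500 bp and 1000 bp. Wider series-only peaks tended to score higher, with Spearman's rho of 0.46 across the 2749 peaks. It was 0.61 across the 5077 peaks that overlapped replicate 2 alone. Peaks of one list share its library and caller, so these correlations are descriptions.

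Series-only peaks lay along the whole X at a density far above that of unsupported autosomal peaks. The whole series-level list was also far denser on the X, with 9008 peaks on 17.7 Mb of X and 868 on 82.4 Mb of autosomes. The contrast is therefore not particular to series-only peaks. Replicate peaks left 10.0 Mb of the X uncovered, 56.5% of its 17.7 Mb, and the series-only peaks fell there at 274.8 per Mb. Unsupported autosomal peaks fell at 6.58 per Mb on 81.9 Mb of replicate-free autosome, which gives a ratio of 41.8. Among single autosomes chromosome V had the lowest density, 5.72, and chromosome III the highest, 7.60. In 18 bins of 1 Mb the X carried 277 ± 41.7 series-only peaks per replicate-free Mb (SD over bins), with a lowest bin of 168 and a highest of 340. In 82 autosomal bins the value was 6.52 ± 2.85, with a highest bin of 15.2. The X and autosomal bins did not overlap. The series-only peaks themselves covered 744549 bp, or 7.44% of the replicate-free X. Median scores were close, at 5.07 for the series-only X peaks and 5.52 for the unsupported autosomal peaks. With a series-level score of at least 5 the X density was 139.9 per Mb, and with replicate 2 left out of the rule it was 460 per Mb.

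Within the X the density per replicate-free Mb differed between bins, while the share of X peaks that were series-only and their median score stayed within narrow ranges. The bins with most series-only peaks were the ones from 4 to 5 Mb with 180, from 10 to 11 Mb with 178 and from 3 to 4 Mb with 177. The bin from 0 to 1 Mb held 114, the fewest of the full bins, followed by 135 from 6 to 7 Mb and 136 from 11 to 12 Mb. The shorter last bin held 103. The first bin was also low per replicate-free Mb, at 168, and it had the most replicate-free sequence, 679.7 kb. As a share of the X peaks in a bin, series-only peaks ran from 26.7% to 35.8%, with a mean of 30.6% ± 2.35 (SD over 18 bins). The central 50% of the X carried 280 series-only peaks per replicate-free Mb, the left outer 25% carried 263 and the right outer 25% carried 277. The median score per bin stayed between 4.42 and 5.57.

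**Figure D2:**
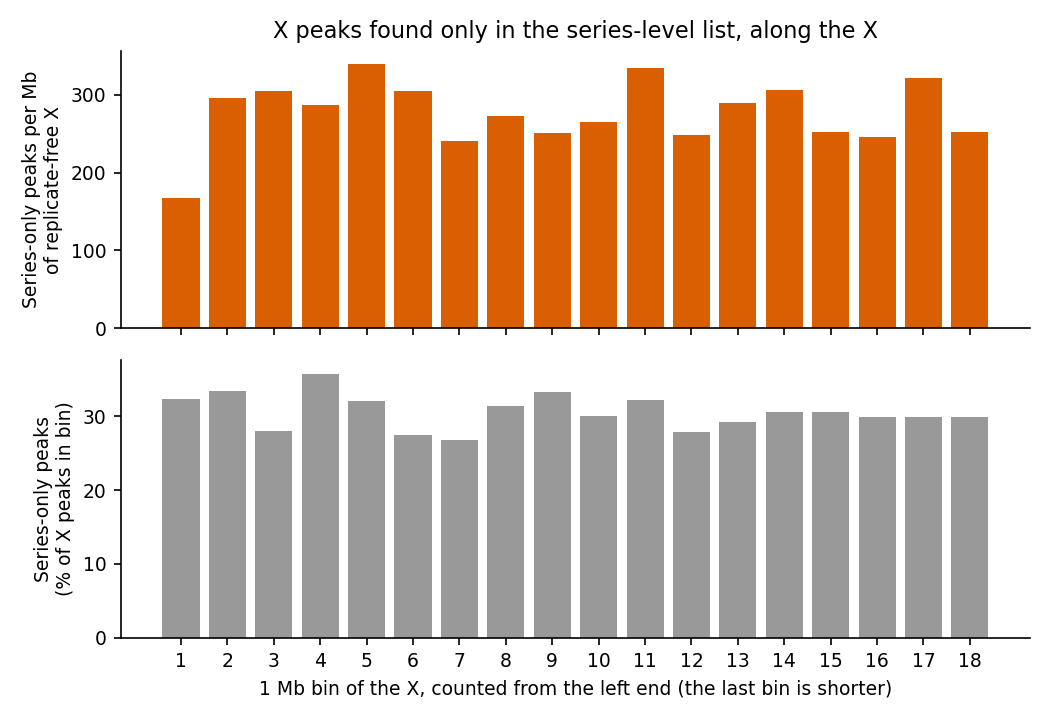
Series-only peaks in 18 consecutive 1 Mb bins of the X, per Mb of sequence that no replicate peak covers (upper panel) and as a percentage of all series-level X peaks in the bin (lower panel). The first bin is lowest in the upper panel at 168 per Mb and the fifth is highest at 340, while the share in the lower panel stays between 26.7% and 35.8%.

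Most series-only peaks lay within 4 kb of a replicate peak, as did most of the replicate-free X. The median gap to the nearest replicate peak was 1826 bp, with quartiles of 854 bp and 3674 bp and a range of 4 bp to 20459 bp. To replicate 2 the median gap was 2084 bp and to replicate 1 it was 6712 bp, and for 241 peaks (8.77%) the nearest replicate peak was one of replicate 1. With replicate 2 left out of the rule, the median gap of the then unsupported peaks was 5610 bp. A gap of at most 1000 bp was found for 830 peaks (30.2%, Wilson interval 28.5% to 31.9%). Of the 10.0 Mb of replicate-free X, 2.13 Mb lay within 500 bp of a replicate peak and 1.59 Mb between 500 bp and 1000 bp. Within 500 bp lay 276 series-only peaks (10.0%), where the density is low by construction, as described below. Between 500 bp and 1000 bp lay 554 (20.2%). Peak midpoints fell there at 350 per replicate-free Mb, against 274.8 series-only peaks per Mb over the whole replicate-free X. Over all series-only peaks, the nearest replicate peaks had median scores slightly below those of their lists. The nearest replicate 2 peak had a median score of 201.1, against 214.8 over all X peaks of replicate 2, and the nearest replicate 1 peak had 157.4, against 162.0. For the 55 series-only peaks scoring at least 20 the medians moved in opposite directions, to 349.6 for replicate 2 and 108.8 for replicate 1.

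Distance from the nearest replicate peak made little difference to the score of a series-only peak. The median score was 4.78 for the 276 peaks within 500 bp, 5.42 between 500 bp and 1000 bp, 5.14 between 1000 bp and 2000 bp, 4.83 between 2000 bp and 4000 bp, 4.85 between 4000 bp and 8000 bp and 5.37 for the 105 peaks at 8000 bp or more. Spearman's rho between score and gap was 0.0034 across the 2749 peaks. Peak midpoints fell at 350 per replicate-free Mb between 500 bp and 1000 bp, at 368 between 4000 bp and 8000 bp and at 264 beyond. The 69.6 per Mb within 500 bp of a replicate peak is low by construction, since a peak whose midpoint is very near an edge would overlap it.

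**Figure D3:**
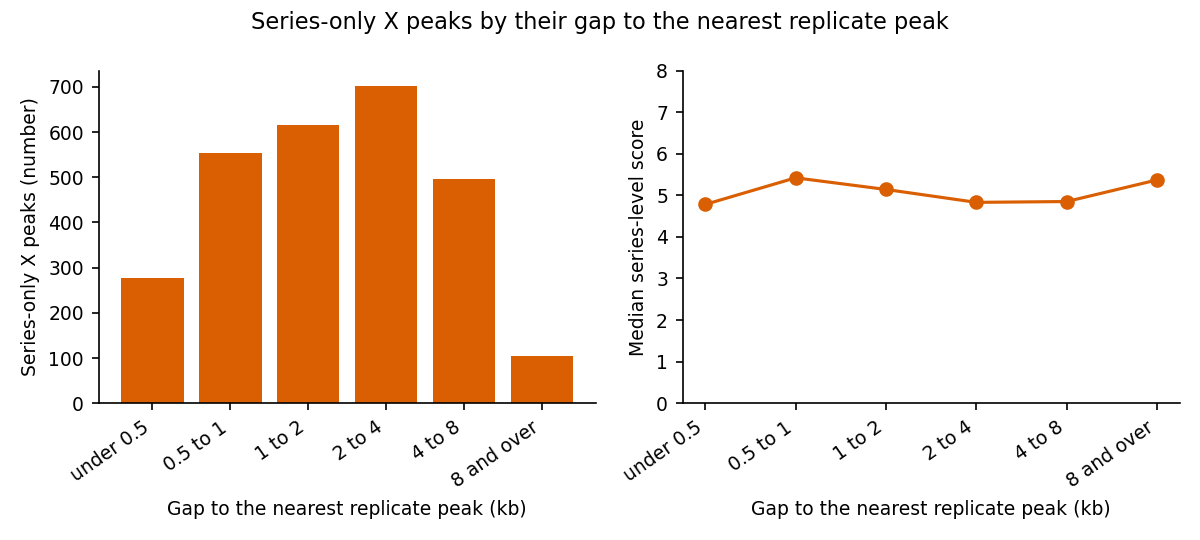
Number of series-only X peaks (left) and their median series-level score (right) by the gap to the nearest peak of either replicate, in kb. Most peaks lie between 0.5 and 4 kb, and the median score stays between 4.78 and 5.42 in the 6 classes.

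Peaks on either side of the rule's limit were narrow, and 9 of the 10 named here scored below the X median of 7.10. The series-only peaks nearest to the limit lay 4 bp to 34 bp from a replicate 2 peak. They stood at 7896870 to 7897043 with a score of 3.42 and a gap of 4 bp, at 1023036 to 1023209 with 4.42 and 11 bp, and at 728746 to 728892 with 4.08 and 21 bp. The next were at 11385647 to 11385799 with a score of 4.42 and a gap of 27 bp, and at 1167982 to 1168160 with 2.80 and 34 bp. On the other side of the limit, 5 X peaks overlapped a replicate peak by 7 bp to 18 bp. The smallest overlap, 7 bp with replicate 1, belonged to the peak at 15811744 to 15811935 with a score of 8.46. Overlaps of 12 bp and 14 bp with replicate 2 were found at 2179274 to 2179420 and at 6310416 to 6310579, both with a score of 5.14. Overlaps of 15 bp and 18 bp, at 10617910 to 10618071 and at 9603688 to 9603851, came with scores of 4.08 each. All 10 of these peaks were between 147 bp and 192 bp wide.

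At the other extreme were peaks near the left end of the X, in long stretches without any replicate peak. The 5 farthest from a replicate peak lay at 86838 to 87118, 144363 to 144566, 90112 to 90257, 91019 to 91297 and 92130 to 92297, with gaps between 16220 bp and 20459 bp. Their scores were 4.15, 3.94, 2.80, 12.23 and 2.50 in that order. The nearest replicate 1 peak, 17076 bp to 30035 bp away, scored 506.0 in each case. One of the 5, at 91019 to 91297, scored above the upper quartile of the series-only peaks.

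Replicate peaks divided the X into 2637 replicate-free intervals with a median length of 2179 bp. Of these, 1489 (56.5%, Wilson interval 54.6% to 58.3%) held no series-only peak, 522 held 1 and 626 held 2 or more. The empty ones include 204 intervals (7.74% of all) shorter than the narrowest peak, 146 bp, which could not hold one. These 204 also count among the intervals under 500 bp below. Intervals with a series-only peak had a median length of 5377 bp and those without had 852 bp. Long intervals were rarely empty. A series-only peak stood in 0.355% of the 563 intervals under 500 bp, in 24.1% of the 428 intervals from 1000 bp to 2000 bp, in 81.0% of the 517 from 4000 bp to 8000 bp and in 97.4% of the 345 at 8000 bp or more (interval 95.1% to 98.6%). The last class held 1437 series-only peaks, 52.3% of the total, in 4.60 Mb.

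Short intervals also held fewer series-only peaks for their room. Room was counted as the start positions at which a peak of the median width of 230 bp would fit without touching a replicate peak. Per Mb of room there were 66.6 series-only peaks in intervals from 500 bp to 1000 bp, 204 from 1000 bp to 2000 bp, 270 from 2000 bp to 4000 bp, 290 from 4000 bp to 8000 bp and 318 above that. The longest intervals of all were not the fullest. The longest ran from 66379 to 108517, a length of 42139 bp, and held 6 series-only peaks with a median score of 4.41. The interval with most held 21 in 27791 bp, from 10768039 to 10795829. The longest interval with no series-only peak ran over 19817 bp, from 9348477 to 9368293, and the next over 18423 bp, from 6523439 to 6541861.

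**Figure D4:**
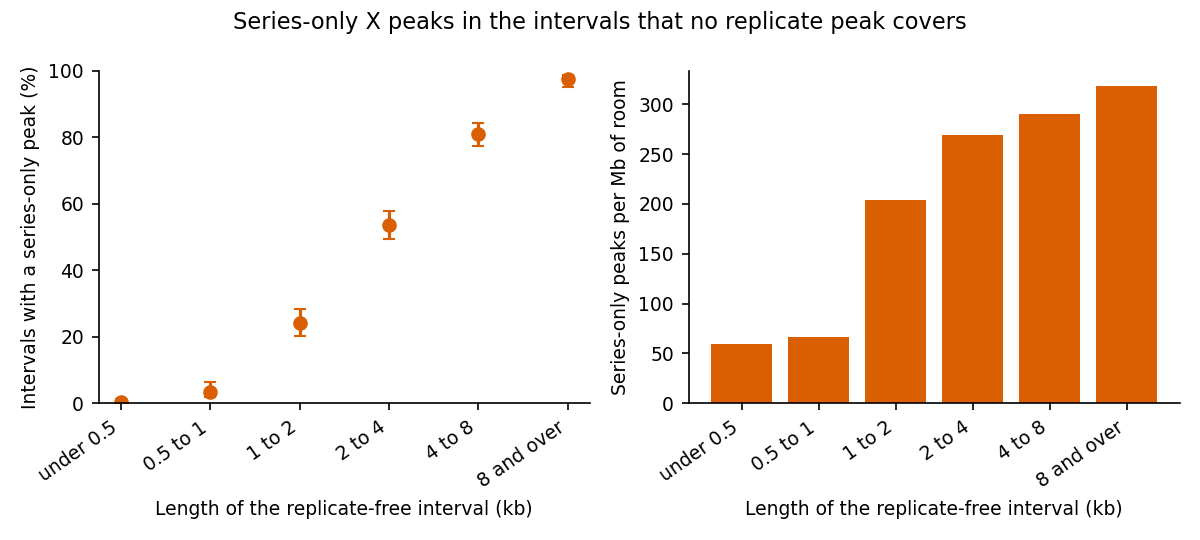
Replicate-free intervals of the X by length in kb: the percentage that hold at least 1 series-only peak, with Wilson 95% intervals (left), and the number of series-only peaks per Mb of room for a peak of median width (right). Both rise with interval length, from 0.355% to 97.4% and from 59.2 to 318 per Mb.

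Series-only peaks often stood next to each other, which largely follows from the rule. Every series-level peak inside a replicate-free interval is series-only, so runs largely repeat the intervals above. Runs were counted as series-only peaks that follow one another with no supported X peak between them. There were 1147 runs with a median of 2 peaks, and 522 peaks (19.0%) stood alone between supported peaks. The nearest series-level X peak of a series-only peak was itself series-only in 1764 cases (64.2%, Wilson interval 62.4% to 65.9%). This share is shaped by the rule too and is given as a description. The nearest X peak lay at a median gap of 1006 bp, against 430 bp for supported X peaks. Scores were slightly higher in the longest runs, without a steady rise among the shorter ones. Single peaks had a median score of 4.78, runs of 2 had 5.14, runs of 3 to 5 had 4.95 and runs of 6 to 10 had 4.995. Runs of 11 to 13 had 5.26 and the 8 runs of 14 or more had 6.15 over their 130 peaks. Those 130 peaks were also wider, with a median of 287.5 bp against 228.5 bp for single peaks.

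The longest run held 21 peaks from 10768238 to 10793755, a span of 25518 bp of which peaks covered 42.1%. Its first peak lay at 10768238 to 10768413 with a score of 10.10, and its last at 10793451 to 10793755 with 2.71. The median score was 6.83, and the highest was 36.13 at 10771962 to 10772532. The nearest replicate 1 peak was 199 bp from the run and the nearest replicate 2 peak 2074 bp. The run started beside an X peak that overlapped replicate 1 alone and ended before one that overlapped replicate 2 alone. With replicate 2 left out of the rule the longest run held 69 peaks. The second longest run, of 19 peaks from 7630004 to 7646273, had a median of 7.54. A run of 17 from 13860602 to 13874062 had the highest median of these runs, 9.48, and its peaks covered 50.7% of its span. Another of 17, from 4833920 to 4851154, had a median of 4.46. The lowest median, 3.74, belonged to a run of 14 from 13796539 to 13812064 that lay 46437 bp from the nearest replicate 1 peak and 368 bp from replicate 2.

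Within 2000 bp of the strongest replicated sites the density of series-only peaks was low, which the rule itself favours. These sites were the 156 X peaks that overlapped both replicates and scored at least 100, a limit set with the data known. Series-only peaks fell at 133 per replicate-free Mb within 2000 bp of such a site, at 232 between 2000 bp and 5000 bp, at 304 between 5000 bp and 10000 bp and at 308 between 10000 bp and 20000 bp. Farther out the values were 275, 271 and 275 for 20000 bp to 50000 bp, 50000 bp to 100000 bp and beyond. Within 2000 bp only 26.4% of the sequence was replicate-free, and the 29 peaks there had a median score of 4.53. Beyond 100000 bp the median was 5.11 over 546 peaks. Peaks scoring at least 20 showed no steady order with distance, with 0 of the 29 within 2000 bp, 21 of 793 between 20000 bp and 50000 bp, 6 of 699 between 50000 bp and 100000 bp and 19 of 546 beyond. Replicate-free sequence within 2000 bp of such a site also lies close to replicate peaks, and within 500 bp of those the density is low by construction. The parts of this and of the replicate cover in the low value were not tested.

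The 10 highest-scoring series-only peaks were 268 bp to 965 bp wide, all above the median width, and lay 920 bp to 4987 bp from the nearest replicate peak. The first, at 14760784 to 14761306, scored 47.97 and ranked 649 among X peaks. It was 3923 bp from a replicate 1 peak and 3299 bp from a replicate 2 peak. The second, at 2321694 to 2321961, scored 46.49 and was 268 bp wide, with gaps of 8449 bp to replicate 1 and 1052 bp to replicate 2. Its replicate 2 neighbour scored 830.9. The third, at 10615794 to 10616280, scored 44.17 with gaps of 1602 bp and 1776 bp. The fourth, at 16379150 to 16379606, scored 40.24, and replicate 1 had a peak 920 bp away. These 4 stood above all other series-only peaks, the next of which scored 36.76.

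Some of the strong series-only peaks lay in stretches where replicate 1 had a peak and replicate 2 had none nearby. The peaks at 16389126 to 16389599 (score 36.29), 10771962 to 10772532 (score 36.13) and 8083854 to 8084197 (score 30.71) were 12259 bp, 12677 bp and 19120 bp from replicate 2, but 2391 bp, 3923 bp and 4987 bp from replicate 1. Among the 55 peaks scoring at least 20, 14 (25.5%) lay more than 8 kb from a replicate 2 peak, against 202 of all 2749 (7.35%). Likewise 28 of the 55 (50.9%) lay within 4 kb of a replicate 1 peak, against 30.9% of all. The limits of 8 kb and 4 kb were chosen after the values were seen. The 55 peaks are not independent, since 8 of them lay in 1 stretch of 39497 bp described below. Gaps to replicate peaks also underlie the rule, so these contrasts are descriptions only. The 3 other members of the highest 10 lay at 15231945 to 15232477 (score 36.76), 17718202 to 17718897 (score 34.73) and 12852897 to 12853861 (score 31.45). The peak starting at 17718202 was the last of the X, and its end is the largest X position in the 3 lists. Whether that end lies within the X of WS220 could not be checked, since that genome was not used.

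The widest series-only peak stood far from the others in width. It ran over 10096 bp, from 7351295 to 7361390, and was the widest of all 9008 X peaks, with a score of 15.72. Such a width was not particular to series-only peaks. The widest X peak that overlapped replicate 1 alone measured 9776 bp, and the widest that overlapped both replicates 9477 bp. On the autosomes the widest peak measured 11076 bp. The nearest replicate 1 peak was 4042 bp and the nearest replicate 2 peak 4139 bp away, with scores of 66.71 and 583. The next in width measured 1957 bp at 16383783 to 16385739 (score 24.25), 1871 bp at 15226869 to 15228739 (score 8.83), 1574 bp at 10611578 to 10613151 (score 17.87) and 1351 bp at 16399940 to 16401290 (score 16.43). The 1957 bp peak was only 148 bp from a replicate 1 peak and 6916 bp from replicate 2.

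**Figure D5:**
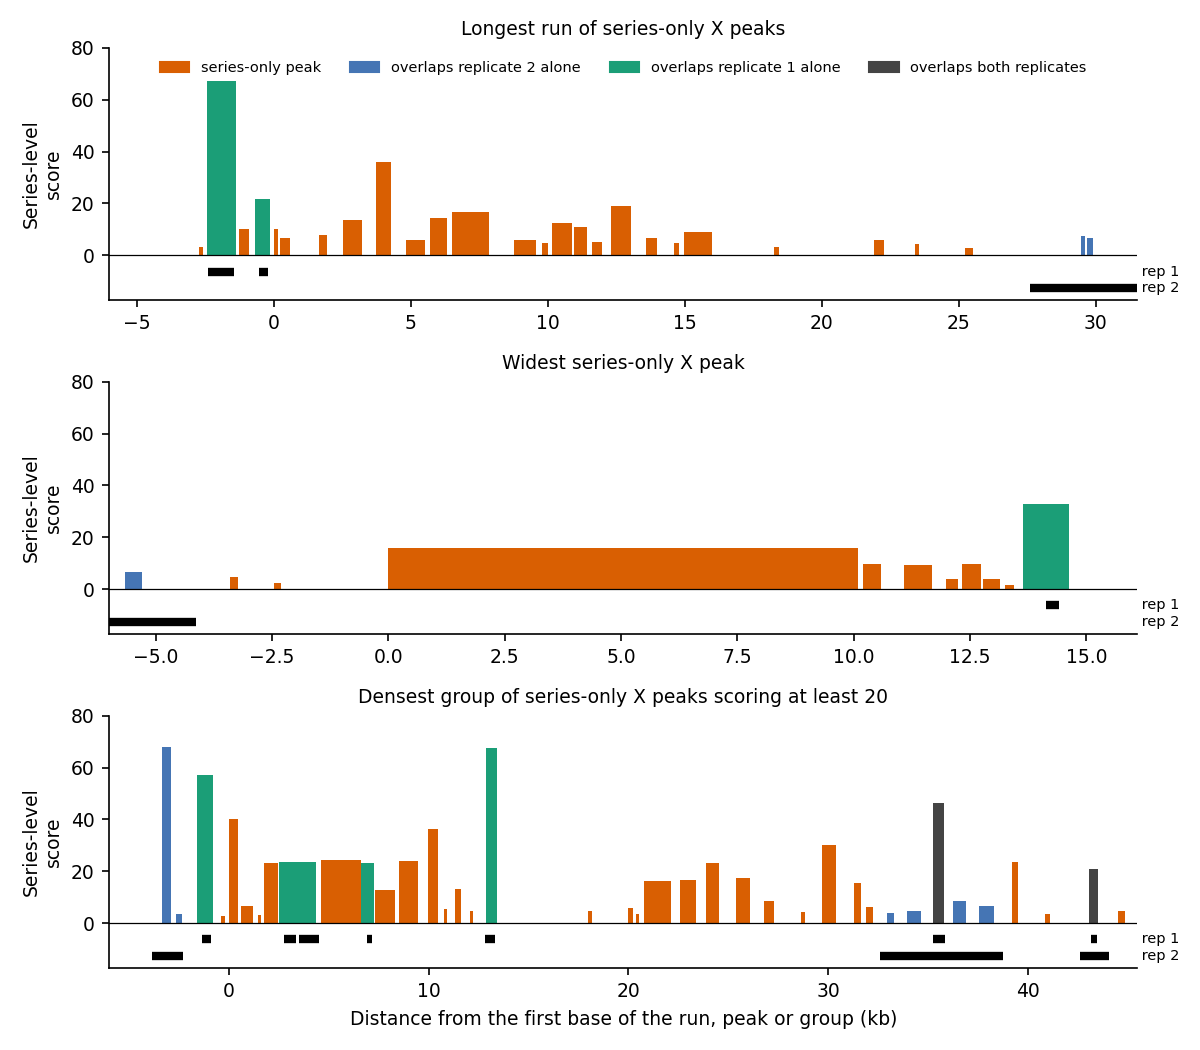
Maps of 3 stretches of the X, with distance in kb from the first base of the longest run, the widest series-only peak and the densest group of series-only peaks scoring at least 20. Boxes are series-level peaks drawn to their width and score and coloured by overlap, and black bars are the replicate 1 and replicate 2 peaks. By the rule no series-only peak meets a black bar; the longest run spans 25518 bp, the widest peak 10096 bp and the group 39497 bp, with series-only scores up to 40.24.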

How the data were processed

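A list per ChIP library (2) and 1 series-level list were analysed, and none of the 2 input libraries. Reads were aligned with BWA to ce10, per the submitters' processing notes. Per the file headers and source columns, MACS called the replicate peaks and MACS v2 the series-level peaks. The score of each peak is the authors' deposited value, on a scale the sources used here do not give. Peak starts and ends are as deposited. Control, filters and pooling of replicates are not given either.

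Overlap required 1 bp. Spans were taken as the largest peak end on each chromosome, and mitochondrial peaks were left out. A last bin was kept if it reached 50% of 1 Mb. Intervals are Wilson or, for medians, order-statistic 95% intervals, and cover counting error over peaks only. Python 3.11.15, numpy 2.4.6, pandas 2.3.3, scipy 1.17.1 and matplotlib 3.10.9 were used. Overlap and gap functions were tested on simulated lists, and bedtools 2.31.1 gave the same 2749 peaks. The series-only peaks, and the rules for which regions are named, were chosen with earlier results of these data known. Named were the 10 highest-scoring, the 5 widest, the 5 nearest to and 5 farthest from a replicate peak, the 5 supported peaks of smallest overlap, the longest run and the 3 fullest and 3 emptiest bins. Labels do not say whether replicates came from separate cultures.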

Additional observations from a re-analysis of the deposited data

How the results depend on the processing

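No paired analysis was possible because the results come from no test and the input libraries have no list in use. Among 9 alternatives, resizing replicate 2 peaks to 488 bp gave 6058 series-only peaks, a median score of 5.61, a width of 257 bp, 379.7 per replicate-free Mb and a gap of 1313 bp. A series-level score of at least 5 gave 1399 peaks, medians of 7.51 and 274 bp and 139.9 per Mb. Replicate scores of at least 100 gave medians of 5.43 and 249 bp, 335 per Mb and a gap of 2628 bp. Counting gaps up to 250 bp as overlap gave 302 per Mb, and up to 1000 bp gave 305 per Mb and a gap of 2766 bp. Merging within 500 bp gave 246 bp, 229 per Mb and a gap of 1730 bp. Leaving out one replicate gave 2837 to 7826 peaks, median scores of 5.14 to 6.23, widths of 234 bp to 281 bp, 281 to 460 per Mb, gaps of 2158 bp to 5610 bp and a longest run of 28 to 69; the higher value came each time without replicate 2. The cause was not tested beyond the construction of each alternative. The remaining settings moved the number by under 1.5 times or stayed within the intervals given. Read depth is unknown, so weak and absent signal in a replicate cannot be told apart.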

Other observations

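Series-only peaks scoring at least 20 were gathered most densely in a stretch of 39497 bp on the X, from 16379150 to 16418646, which was found after the values were seen by counting them in windows of 50 kb. It held 8 of the 55 such peaks, while no window of that size outside it held more than 3. The 1 Mb bin from 16 to 17 Mb held 11 of them, and no other bin held more than 6. Of the 32 series-level peaks in the stretch, 24 were series-only, with a median score of 14.3 against 5.07 for all series-only peaks. The others were 3 peaks shared with replicate 1 alone, 4 with replicate 2 alone and 1 with both. Replicate 1 listed 5 peaks there, scoring 56.34 to 274.9. Replicate 2 listed 1 peak there, of 6135 bp and a score of 1095, which began at 16411771. The strongest series-level peak of the stretch, at 16392024 to 16392589, scored 67.41 and met a replicate 1 peak of 107.5 but none of replicate 2. Before 16411771, where the replicate 2 peak began, the stretch held 4 replicate 1 peaks and no replicate 2 peak.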
